A study of Mus musculus with 33 samples.

Results

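Nanog binding sites were mapped by ChIP-seq, the sequencing of DNA fragments that an antibody recovers together with the protein bound to them, in mouse embryonic stem cells (mESC) that were wild type (WT) or lacked Uhrf1 (Uhrf1 KO). The Nanog libraries are 2 of 33 samples of the study, and each was deposited as a list of summits, the positions where the read pileup of a peak is highest. The WT list held 2390 summits and the Uhrf1 KO list 10632, out of 52441 summits in the 6 factor lists of the study (Oct4, Sox2 and Nanog in either genotype). A summit is called a site below, and a site was called shared when the other genotype had a summit within 100 bp, WT-only or KO-only when it had none. Both were undifferentiated E14 mESC, grown in medium with serum and LIF on gelatin or on plates coated with mouse embryonic fibroblasts, and the same antibody was used for both. Each genotype had 1 Nanog library, and a difference between them has no replicate check and no p-value. All intervals are 95% intervals that cover counting error over sites only (by Wilson's method for shares, by Newcombe's for differences between shares, and from binomial ranks for medians). The study's sequencing summary lists more mapped reads for the WT than for the KO Nanog library, and the totals were not used here.

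Nanog is a homeodomain transcription factor that, with Oct4 (encoded by Pou5f1) and Sox2, holds mESC in the undifferentiated state. The 3 factors often bind the same enhancers, where Oct4 recognises an octamer and Sox2 an adjacent Sox element. Uhrf1 recruits the maintenance methyltransferase Dnmt1 to replicating DNA and binds histone H3 that carries H3K9 methylation. H3K4me3 marks active promoters, H3K27me3 marks genes silenced by Polycomb, and H3K9me3 marks heterochromatin.

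The joint Sox-octamer element was searched as CATTGT, then any base, then ATGCAA on both strands, within 100 bp of each summit. It was found at 1 of 1927 shared (0.052%), 4 of 8626 KO-only (0.046%) and 0 of 390 WT-only sites whose sequence could be searched. The shares of shared and KO-only sites were thus close, against 0.00276% of windows of the same length along the genome. These 5 stretches are shown because they are the sites whose sequence holds the textbook binding element of the partner factors, and the element is in capitals. All positions refer to mm9 (NCBIM37), and sequences read 5′ to 3′ on the strand given.
shared, intergenic, chr13:57464120-57464162, minus strand: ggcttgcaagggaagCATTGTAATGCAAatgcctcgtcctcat
KO-only, upstream of Nanog, chr6:122657418-122657460, minus strand: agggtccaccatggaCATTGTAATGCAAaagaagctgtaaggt
KO-only, intergenic, chr19:35175917-35175959, plus strand: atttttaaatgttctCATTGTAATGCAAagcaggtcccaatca
KO-only, intergenic, chr3:16841466-16841508, minus strand: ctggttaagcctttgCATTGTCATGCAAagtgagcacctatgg
KO-only, intron, chr3:85142298-85142340, plus strand: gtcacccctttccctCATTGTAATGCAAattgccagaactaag
At the Nanog gene itself the summit lay 0.061 kb upstream of the start, with a KO height of 22, and the nearest WT Nanog summit was 44247 bp away. WT Oct4 and WT Sox2 summits lay within 100 bp of it, as did a KO Sox2 summit. The site on chromosome 13 had a height of 18 in WT and 49 in KO. This gene and these sites were chosen after their values were seen.

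Most WT Nanog sites were found again in KO cells, and the KO list held many more. Of 2390 WT sites, 1947 were shared (81.5%, interval 79.9 to 83.0) and 443 were WT-only. Of 10632 KO sites, 1947 were shared (18.3%, 17.6 to 19.1) and 8685 were KO-only. The median distance between paired summits was 25 bp, and widening the limit to 1000 bp left 2226 WT sites with a KO summit. Taller WT sites were shared more often: the share was 65.0% among heights of 9 to 15 and 93.7% among heights of 33 to 112. When the KO list was cut to its tallest summits, as many as in WT, 55.7% of sites were shared. How many summits a caller returns also depends on depth and enrichment, so wider binding and a longer list of calls cannot be told apart here.

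The height of a summit is the number of reads piled up there, as deposited, and it is not stated whether heights were scaled to depth. WT sites that were shared had a median height of 22 (14 to 44 between the 10th and 90th percentiles) and WT-only sites 16 (12 to 29.8). KO sites that were shared had a median of 27 (12 to 58.4) and KO-only sites 11 (8 to 21). KO-only sites were thus mostly the low part of the KO list, although the tallest KO summit of all, at 228, was among them.

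At the 1947 shared sites the KO summit was higher at 1174, equal at 66 and lower at 707. The median log2 ratio of KO to WT height was 0.21 (0.17 to 0.25), and the middle 90% of sites ran from -0.92 to 1.18. The 3 tallest shared sites in WT, outside crowded places, were 111, 105 and 104 high there and 136, 98 and 173 in KO, and all 3 had Oct4 and Sox2 summits of both genotypes. The second of them lay on chromosome 15 at 74917209, 24.9 kb from the start of Ly6c2. KO was at least 2-fold higher at 179 shared sites and WT at 79. As a description across sites, Spearman's rho between WT and KO height was 0.63.

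**Figure D1:**
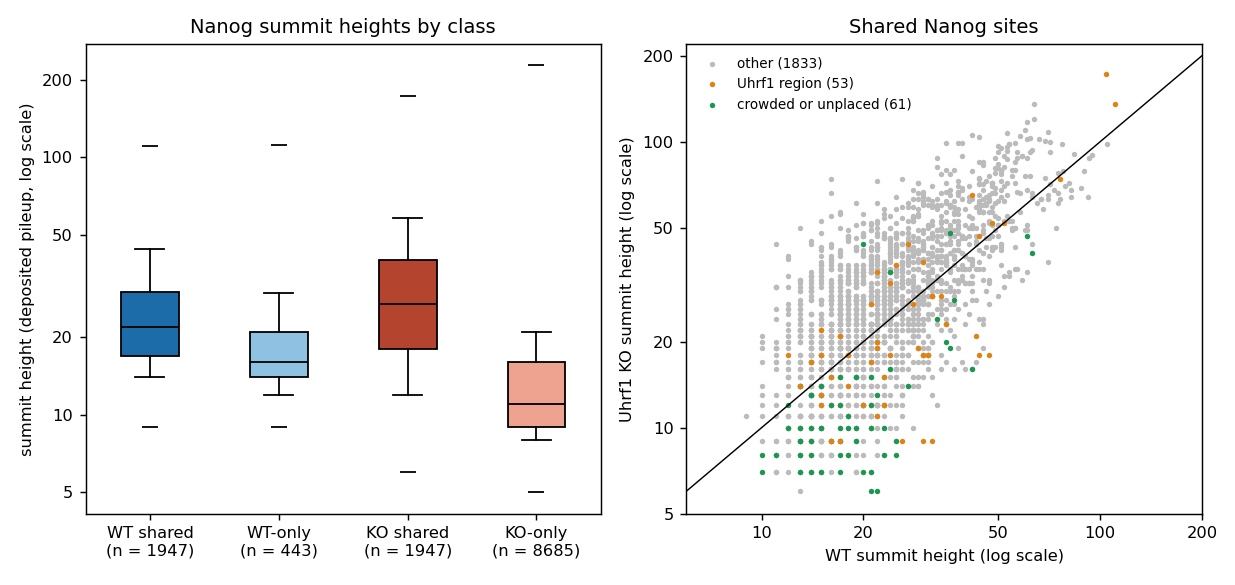
Left, summit heights (log scale) of the 4 site classes, with boxes from the 25th to the 75th percentile, a line at the median, whiskers at the 10th and 90th percentiles and dashes at the lowest and highest site. Right, WT against Uhrf1 KO height at the 1947 shared sites (both axes log, line at equal height), where most sites lie above the line and crowded sites lie mainly below it.

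Shared sites did not all shift alike. Those inside a Uhrf1 region, a 10 kb window enriched for Uhrf1 in WT mESC, had a median log2 ratio of -0.44 (-0.64 to -0.21, n = 86), with KO higher at 24.4% of them. Without crowded places (many summits in a short stretch, described further on) and unplaced sequence the median was -0.14 (-0.42 to 0.10, n = 53) inside Uhrf1 regions and 0.25 (0.21 to 0.28, n = 1833) outside. Among the same sites, those with a Sox2 summit in both genotypes had a median of 0.28 (0.23 to 0.31, n = 1144) and those with Sox2 in KO alone 0.37 (0.26 to 0.43, n = 403). Sites with Sox2 in WT alone had -0.22 (-0.35 to 0.10, n = 100) and sites with Sox2 in neither genotype -0.08 (-0.18 to 0.10, n = 239). Within 5 groups of mean height, sites with a KO Sox2 summit had the higher median ratio in 5 of 5 groups, by 0.03 to 0.26 on the log2 scale. Both values come from the KO cells' libraries, so a common difference between the KO and WT preparations was not tested.

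H3K4me3 went with a higher ratio as well. Shared sites in a WT H3K4me3 domain had a median log2 ratio of 0.33 (0.28 to 0.38, n = 959) and sites outside had 0.08 (0.03 to 0.13, n = 988). Within groups of mean height the difference was between -0.04 and 0.23 and was above 0 in 4 of 5 groups. Without crowded places and unplaced sequence, the median was 0.36 (0.29 to 0.43) at 662 sites with H3K4me3 in both genotypes. It was 0.28 (0.16 to 0.36) at 293 sites with the mark in WT alone and 0.36 (0.17 to 0.54) at 62 with it in KO alone. At 869 sites with the mark in neither genotype it was 0.11 (0.07 to 0.16). Inside WT H3K27me3 domains the median was 0.12 (0.07 to 0.17, n = 666), against 0.26 (0.22 to 0.30, n = 1281) outside.

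Some places held many summits close together. Windows of 10 kb with at least 5 summits of a list, called crowded, and sequence not placed on a chromosome held 112 of 443 WT-only sites (25.3%), 61 of 1947 shared WT sites (3.13%) and 160 of 8685 KO-only sites (1.84%). The largest lay on chromosome 8 from 19860001 to 20040000, around Gm15319, with 81 WT summits (54 WT-only) and 107 KO summits (80 KO-only). The same stretch held 7 Oct4 summits in WT and 101 in KO. Another lay on chromosome 6 from 47600001 to 47710000 and overlapped no protein-coding gene, with 23 WT and 37 KO Nanog summits. At shared sites that were crowded or unplaced the median log2 ratio was -0.70 (-0.83 to -0.53, n = 61).

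To ask what chromatin the classes lay in, each summit was placed in the domains that the authors called in each genotype. Nanog sites were rich in H3K4me3: WT domains covered 8.14% of the genome but held 49.3% of shared KO sites (47.1 to 51.5) and 33.2% of KO-only sites (32.3 to 34.2). The difference between KO-only and shared sites was -16.1 percentage points (-18.5 to -13.6), and within 5 groups of KO height it was -3.74 points (-7.88 to 0.41). KO H3K4me3 domains covered 7.10% of the genome and held 37.3% of shared and 29.4% of KO-only sites. The difference was -7.86 points (-10.2 to -5.53), and its weighted mean within height groups was 4.13 points (0.53 to 7.73). Single groups ran from -5.95 to 9.63 points. In the lowest group these domains held 25.3% of KO-only sites and 17.6% of only 91 shared sites. In the tallest group they held 36.8% of KO-only and 42.8% of shared sites. The class difference in H3K4me3 therefore moved with height.

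Domains of repressive marks held a smaller share of KO-only than of shared sites before height was taken into account. WT H3K27me3 domains covered 36.1% of the genome and held 34.3% of shared and 24.2% of KO-only sites, a difference of -10.1 points (-12.4 to -7.79) and of -6.55 (-10.6 to -2.52) within height groups. KO H3K27me3 domains covered 3.17% of the genome and held 6.16% and 4.76%, a difference of -1.41 points (-2.64 to -0.32) and of -1.16 (-3.30 to 0.98) within height groups. For H3K9me3, WT domains (37.2% of the genome) held 38.7% of shared and 30.5% of KO-only sites, and KO domains (40.9%) held 57.5% and 47.6%. The difference in KO H3K9me3 domains was -9.91 points (-12.3 to -7.46) and 0.32 points (-3.99 to 4.63) within height groups. That last value is a weighted mean, and single groups ran from -8.35 to 11.2 points.

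**Figure D2:**
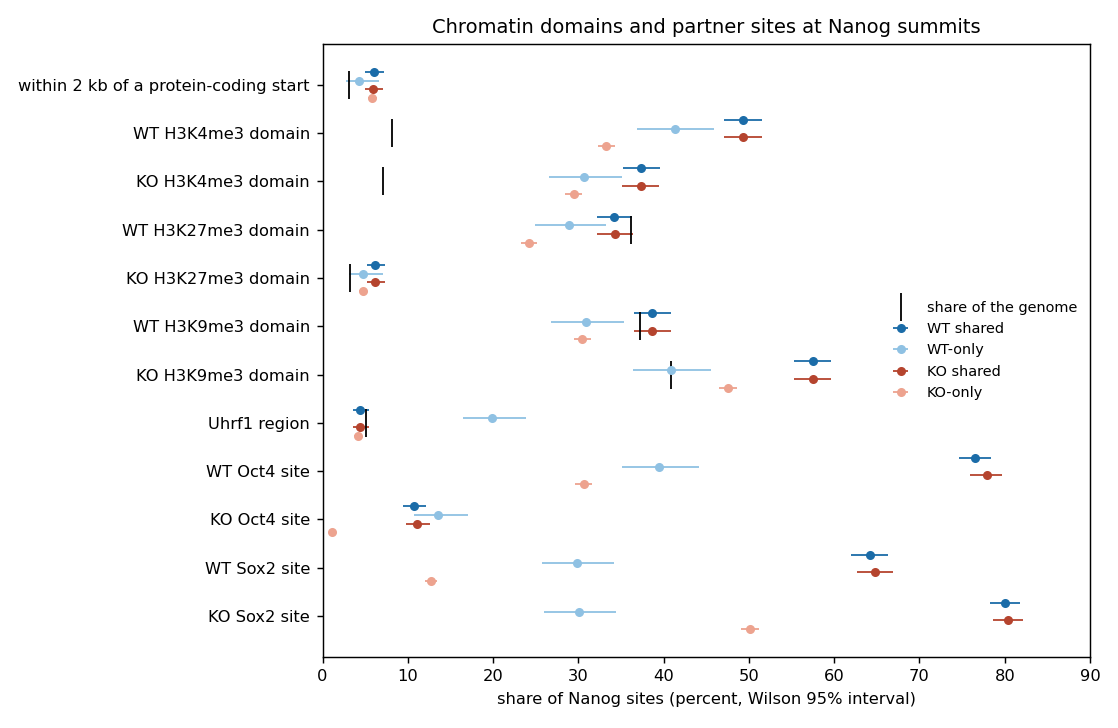
Share of Nanog sites of each class (percent, points with Wilson 95% intervals) near a gene start, inside histone or Uhrf1 domains and within 100 bp of Oct4 or Sox2 summits, with a vertical tick at the share of the genome the domain covers. Shared sites lie to the right of KO-only sites for the partner factors and H3K4me3, and WT-only sites stand apart in Uhrf1 regions.

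Taking H3K4me3 and H3K27me3 together, 36.6% of shared KO sites lay in WT H3K4me3 alone, 12.7% in both marks, 21.6% in H3K27me3 alone and 29.1% in neither. For KO-only sites the shares were 27.2%, 6.08%, 18.1% and 48.6%. Of 247 shared KO sites with both marks in WT, 120 kept H3K4me3 alone in KO, 31 kept both, 23 kept H3K27me3 alone and 73 had neither. The KO H3K27me3 list covers far less of the genome than the WT list, which bears on each of these counts.

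Where a KO Nanog summit lay in a WT H3K4me3 domain, the mark was listed again in KO more often at KO-only than at shared sites. Of 2887 KO-only sites in WT H3K4me3 domains 24.8% lay outside KO domains (23.3 to 26.4), against 30.8% of 960 shared sites (28.0 to 33.8), a difference of -6.03 points (-9.40 to -2.77) and of -12.1 points (-19.1 to -5.18) within height groups. Near gene starts the loss was small in both classes, 9.51% of 410 KO-only sites and 8.42% of 95 shared sites, and away from starts it was 27.3% and 33.3%. WT-only sites differed from shared sites by -0.50 points (-7.36 to 7.05).

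Uhrf1 regions covered 5.14% of the genome and held 19.9% of WT-only sites (16.4 to 23.8), against 4.42% of shared WT sites, a difference of 15.4 points (11.9 to 19.5). Without crowded places and unplaced sequence the WT-only share was 9.97% and the difference 7.16 points (4.25 to 10.9). KO-only sites lay in Uhrf1 regions at 4.13%, near the share of the genome, and differed from shared KO sites by -0.28 points (-1.37 to 0.65). Without crowded places and unplaced sequence that difference was 0.31 points (-0.61 to 1.07). Within height groups, with crowded places kept, it was -7.58 points (-10.8 to -4.40). In the lowest group Uhrf1 regions held 20.9% of only 91 shared KO sites (13.8 to 30.3) and 6.79% of 2828 KO-only sites. In the tallest group they held 1.86% of shared and 1.90% of KO-only sites.

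The partner factors separated the classes most. Of shared KO sites, 77.9% had a WT Oct4 summit and 64.8% a WT Sox2 summit within 100 bp, against 30.6% and 12.8% of KO-only sites. The differences were -47.2 points (-49.3 to -45.1) for Oct4 and -52.1 points (-54.3 to -49.8) for Sox2, and within height groups they were -32.2 (-36.6 to -27.8) and -34.3 (-38.5 to -30.2). KO Sox2 summits lay at 80.4% of shared and 50.2% of KO-only sites, a difference of -30.3 points (-32.3 to -28.2) that shrank to -5.81 points (-10.2 to -1.45) within height groups. Among the tallest KO sites, of height 22 to 228, KO Sox2 was present at 77.9% of KO-only and 90.1% of shared sites, and WT Sox2 at 23.8% and 72.1%. Shared sites were chosen for a WT Nanog summit, and depth that the WT libraries have in common was not tested.

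**Figure D3:**
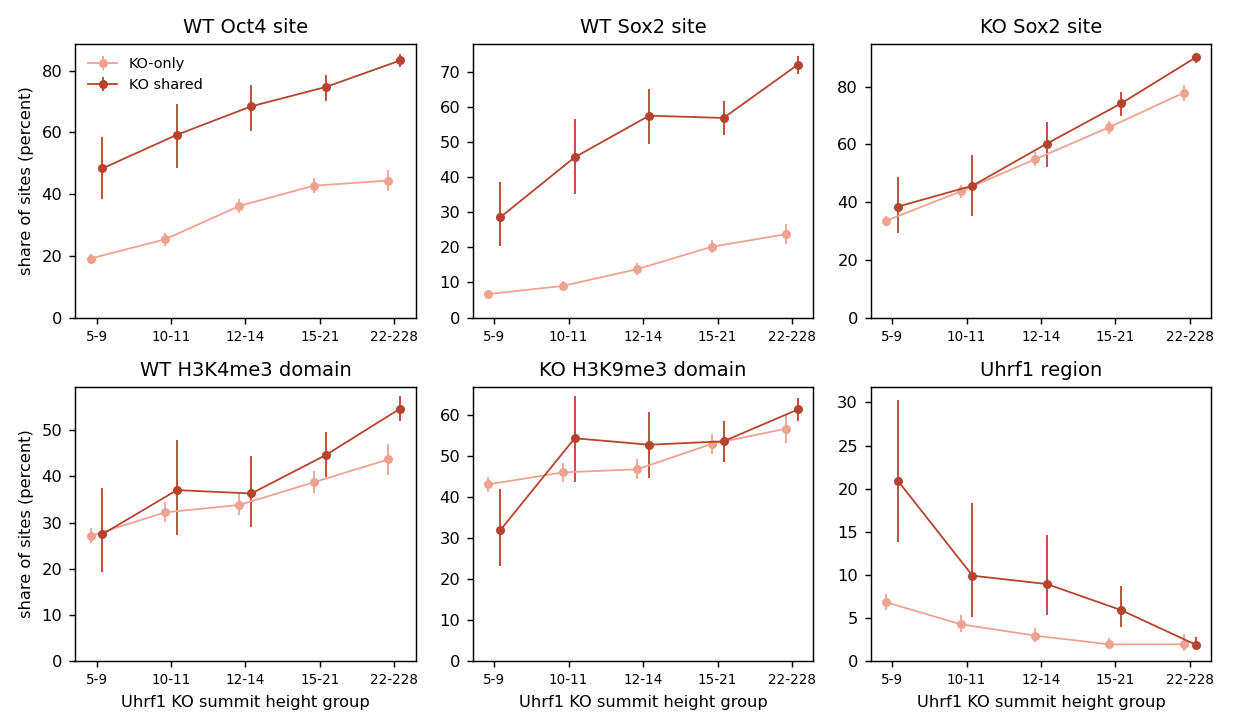
Share of KO-only and shared KO sites (percent, points with Wilson 95% intervals) that carry each feature, in 5 groups of Uhrf1 KO summit height. WT Oct4 and WT Sox2 separate the classes at every height, whereas KO Sox2, WT H3K4me3 and KO H3K9me3 lie closer together.

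Of the 8685 KO-only sites, 3392 (39.1%) had Sox2 in KO alone, 964 (11.1%) in both genotypes, 144 (1.66%) in WT alone and 4185 (48.2%) in neither. A WT Oct4 summit lay at 38.5% of those with Sox2 in KO alone, at 79.7% of those with Sox2 in both and at 11.9% of those with Sox2 in neither. For shared KO sites the shares of the 4 kinds were 20.5%, 59.9%, 4.93% and 14.6%. The Sox2 lists, like the Nanog lists, are longer in KO (20755 against 5190 summits).

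Oct4 moved the other way, with 12898 summits in WT and 576 in KO. Oct4 summits of KO cells lay at 209 of 1947 shared WT Nanog sites (10.7%) and at 1.11% of KO-only sites. Of these 209, 28 were crowded or unplaced and 181 were not. Of the 576 KO Oct4 summits in all, 217 (37.7%) were crowded or unplaced, against 212 of the 12898 in WT (1.64%). At the 181 other Nanog sites the median height was 34 in WT and 41 in KO, and 163 had a WT Oct4 summit as well.

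WT-only sites were poorer in partners than shared WT sites. WT Oct4 summits lay at 39.5% of them (35.1 to 44.1) and WT Sox2 summits at 29.8% (25.7 to 34.2), against 76.5% and 64.1% of shared WT sites. Without crowded places and unplaced sequence these WT-only shares were 50.8% and 39.6%, with differences from shared sites of -27.9 points (-33.5 to -22.2) and -26.4 points (-31.9 to -20.6). WT H3K4me3 domains held 41.3% of WT-only sites, a difference of -7.95 points (-13.0 to -2.80) from shared sites. Once crowded places and unplaced sequence were left out, the share was 54.1% and the difference 3.44 points (-2.39 to 9.19). Of 2390 WT sites, 1947 had a KO summit within 100 bp and 2177 within 500 bp. Many WT-only sites thus had a KO summit between 100 and 500 bp away. Contrasts of WT-only sites were not recomputed at 500 bp.

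The classes were close in their share near gene starts and differed in their shares of introns and intergenic sequence. Sites within 2 kb of a protein-coding start made up 5.91% of shared and 5.83% of KO-only sites, a difference of -0.08 points (-1.31 to 1.01), against 3.14% of the genome. Introns held 36.3% of shared and 40.1% of KO-only sites, and 61.9% and 57.3% were intergenic. Of WT-only sites 28.9% lay in introns and 68.4% were intergenic, against 36.2% and 61.8% of shared WT sites. Unplaced sequence held 53 of 443 WT-only and 20 of 1947 shared WT sites, and these sites counted as intergenic. They also counted in the class farthest from a start (200 kb or more), which held 22.3% of WT-only and 13.2% of shared WT sites. Neither contrast was recomputed without unplaced sequence or crowded places. Coding exons held 0.308% of shared KO and 0.783% of KO-only sites. The median distance to the nearest start was 34.5 kb for shared and 34.6 kb for KO-only sites, and 41.0 kb for WT-only sites.

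Shared and KO-only sites both held the searched elements more often than windows of the genome did. The Sox element CATTGT was found in the 201 bp window of 22.7% of shared and 23.6% of KO-only sites, against 12.6% of windows of the same length along the genome. The difference was 0.94 points (-1.18 to 2.97), and 4.41 points (0.82 to 8.01) within height groups. The octamer ATGCAAAT was found at 7.11% and 7.59%, against 1.74% of genome windows, and at 3.08% of WT-only sites, a difference of -3.93 points (-5.72 to -1.47) from shared WT sites. TAATGG, a core that homeodomains such as that of Nanog recognise, was found at 14.8% and 13.9%, against 8.69%. AAGGTCA, the element of Esrrb, was found at 9.91% of shared and 12.4% of KO-only sites, a difference of 2.50 points (0.93 to 3.95), against 3.75%. GGGTGTG, an element of Klf factors, was found at 7.47% and 8.58%, against 3.23%. Both strands were searched, and the joint element contains the Sox element and part of the octamer. Per 100 sites and 100 bp, KO-only sites had 16.8 Sox elements within 50 bp of the summit and 5.88 at 400 to 500 bp from it, and shared KO sites 16.4 and 5.30.

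**Figure D4:**
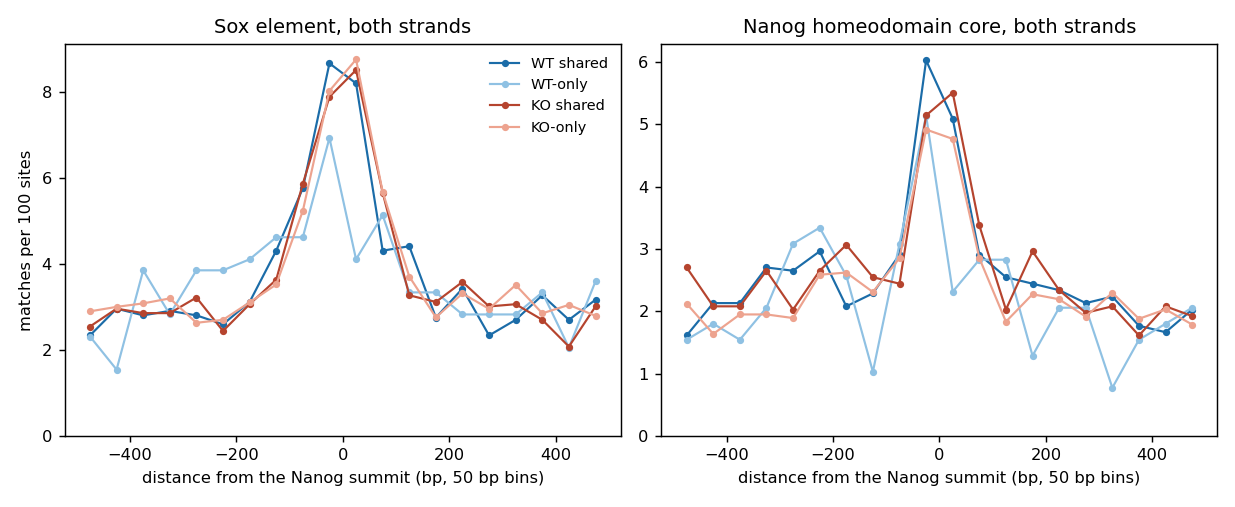
Matches of the Sox element (left) and of the homeodomain core (right) per 100 sites in bins of 50 bp by distance from the Nanog summit, for the 4 site classes. In shared and KO-only sites matches of both elements peak at the summit, and the WT-only curve, from 389 sites, is less regular.

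Pluripotency genes were near Nanog sites in both genotypes. Of 33 matched regulators, 22 had a WT site and 32 a KO site within 50 kb of their start, the exception in KO being Esrrb. Over all 22380 protein-coding genes 9.65% had a WT site and 35% a KO site. A KO site and no WT site was found for 10 of the 33, against 25.6% of all genes, and a WT site and no KO site for 0 of 33, against 0.277%. When the KO list was cut to the WT number, 20 of the 33 and 2408 of all genes had a KO site, against 2160 of all genes in WT.

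Of the 12 pluripotency genes with the tallest sites, 11 had a shared site as their tallest. Prdm14, which encodes a repressor of germ layer and methylation genes, had it 42.1 kb downstream of its start, and it was 61 high in WT and 88 in KO. At Utf1, a chromatin factor of undifferentiated cells, it lay 6.18 kb downstream with 48 and 72. For Jarid2, a cofactor of Polycomb complex PRC2, the heights were 38 and 70. Klf2, a Krüppel-like factor of the naive state, had 47 and 65, and Tdgf1, a Nodal co-receptor, had 36 and 65. For Sall1, a zinc finger factor, the values were 45 and 60, for Phc1, a Polycomb subunit, 39 and 47, and for Tbx3, a T-box factor, 18 and 46. The site 3.58 kb upstream of Sox2 had heights of 27 and 48. Near Zfp42 (Rex1), a marker of undifferentiated cells, WT was higher, at 68 against 58, as it was 0.602 kb upstream of Rif1, a replication timing factor, at 55 against 50. All 11 of these sites were shared, and KO was higher at 9. The genes were named for the height of their site in either list, so this count is a description only.

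**Figure D5:**
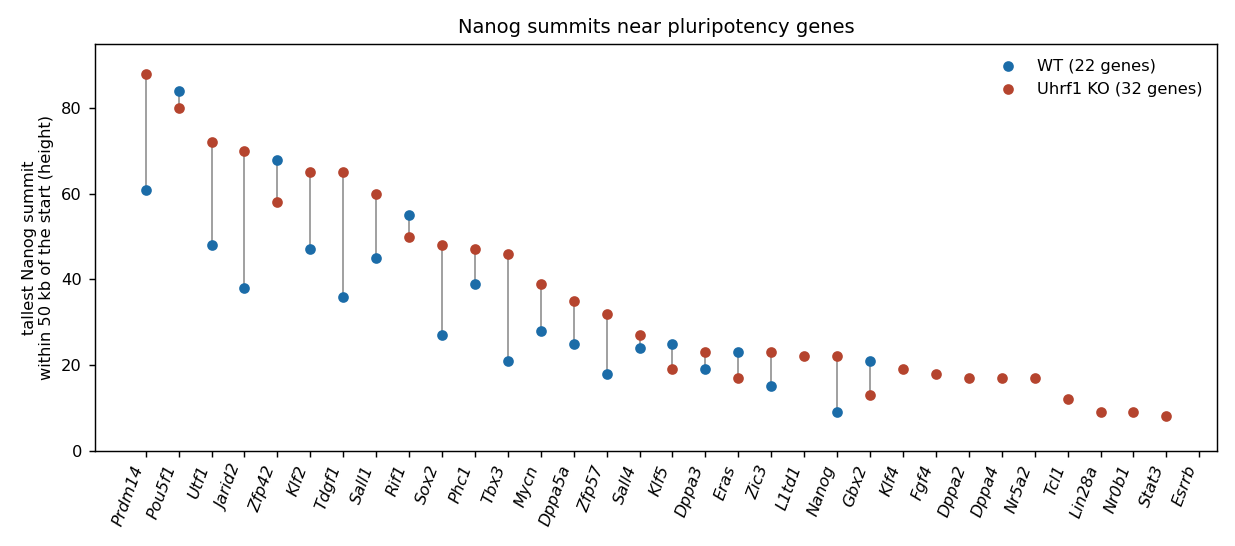
Height of the tallest WT and Uhrf1 KO Nanog summit within 50 kb of the start of each of 33 pluripotency genes, with a line joining the values where both lists hold a summit (which need not be the same site). KO values lie above WT values for most genes with both, and 10 genes have a KO point alone.

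Pou5f1, which encodes Oct4, differed from the others. Its tallest WT summit, of height 84, lay 0.929 kb upstream of the start and 1043 bp from the nearest KO summit, and was the third tallest WT-only site among those outside crowded places. A second WT summit 1.97 kb upstream had a height of 56, and the KO list held it with a height of 80, along with Oct4 and Sox2 summits of both genotypes. The WT-only site had a WT Oct4 summit and no Sox2 summit of either genotype, and it lay in WT H3K4me3 and H3K27me3 and in KO H3K4me3. Its sequence and those at Prdm14, Jarid2 and Tbx3 are shown as examples of named sites whose windows hold a Sox element or octamer, in capitals. The window at Sall1 held a Sox element as well and is not shown. No window of the 12 held the joint element.
Pou5f1, WT-only, chr17:35642097-35642142, plus strand: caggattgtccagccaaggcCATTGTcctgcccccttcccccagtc
Prdm14, shared, chr1:13075202-13075247, minus strand: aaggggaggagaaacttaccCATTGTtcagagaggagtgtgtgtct
Jarid2, shared, chr13:44801017-44801064, minus strand: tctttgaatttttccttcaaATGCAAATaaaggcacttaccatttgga
Tbx3, shared, chr5:120145053-120145098, plus strand: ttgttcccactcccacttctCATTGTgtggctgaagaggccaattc

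Of 25 genes of LIF, FGF, Nodal and Wnt signalling, 16 (64%) had a WT site and 22 (88%) a KO site, against 9.65% and 35% of all genes, and 16 had a KO site with the KO list cut to the WT number. Id3, an inhibitor of differentiation downstream of BMP, had a site 3.44 kb from its start with heights of 66 and 102. Lefty1 and Lefty2, Nodal antagonists, share a site of 54 and 98 between them. At Tcf7l1, a repressor in the Wnt pathway, an intronic site had 50 and 84. Fgf4, the autocrine ligand that primes mESC to differentiate, had no WT site and 6 KO sites, the tallest of height 18, and was chosen after its values were seen.

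Among genes of DNA methylation and heterochromatin, 8 of 15 (53.3%) had a WT site and 11 (73.3%) a KO site, against the same 9.65% and 35%, and 7 had a KO site with the KO list cut. The tallest lay in an intron of Tet3, a 5-methylcytosine oxidase, with heights of 49 and 55. Uhrf2, the paralog of Uhrf1, had a KO-only site of height 52 at 1.36 kb upstream of its start, and a WT-only site of height 32 within 50 kb. Dnmt3b, a de novo methyltransferase, had a shared site of 23 and 46, and Tet2 an intronic site of 36 and 45. Near Uhrf1 itself the tallest summit had a height of 10 in either list.

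Of 9 genes of the Setd1a/COMPASS complexes, which methylate H3K4, 3 (33.3%) had a WT site and 6 (66.7%) a KO site, against 9.65% and 35% of all genes. The KO count was 3 with the KO list cut and 3 within 20 kb, where the WT count was 2. Rbbp5, a core subunit, had a shared site of 53 and 93, and Setd1b, a catalytic subunit, an intronic site of 71 and 92. Wdr82 had 20 and 32, and Dpy30 a KO-only intronic site of 14. Setd1a had none in either list.

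Among 22 mesoderm genes 3 (13.6%) had a WT site and 7 (31.8%) a KO site, near the 9.65% and 35% of all genes, and 2 had a KO site with the KO list cut. An intronic site of Wnt3 had 24 and 45. Near Msx2 a WT-only site of height 32 was found along with 3 KO-only sites, the tallest of height 18. In neuroectoderm 3 of 21 genes (14.3%) had a WT site and 12 (57.1%) a KO site, and 6 had a KO site with the KO list cut. Otx2, which specifies anterior neural tissue, had an intronic site of 52 and 89, and Zic2 an upstream site of 33 and 45. KO-only sites of 36 and 34 lay near Zic1 and in Pax6, regulators of neural progenitors, and Pax6 also had a WT summit of height 28. A KO and no WT site was found for 9 of the 21 (42.9%), against 25.6% of all genes. Among 20 endoderm and trophoblast genes 6 (30%) had a WT and 12 (60%) a KO site, and 5 had a KO site with the KO list cut. The tallest site lay in Lama1 (43 and 47). Foxa2 had 29 and 22, and a KO-only site of 25 lay in a coding exon of Gata3. Of 13 matched genes of the 2-cell stage 0 had a WT site and 2 (15.4%) a KO site, of heights 10 and 8, and 0 had a KO site with the KO list cut.

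The tallest sites that were not shared lay mostly in unusual places. The tallest KO-only summits, of heights 228, 226 and 188, lay on chromosome 2 at 98507317, 98502802 and 98504035, in Gm10800 and Gm10801, within 5 kb of each other and inside a Uhrf1 region. None had an Oct4 summit of either genotype, and 1 had a KO Sox2 summit. The tallest WT-only summit, of height 112, lay in a coding exon of Gm10720 on chromosome 9 at 3017132, in a Uhrf1 region and with no partner summit. The next, of height 95, lay in an intron of Sfi1 on chromosome 11 at 3045564. None of these sites counted as crowded, and the input signal at these places was not examined.

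Among shared sites at or above the median height in at least 1 list, the largest ratios of KO to WT were 16 against 74 near Lman1 on chromosome 18, 16 against 66 on chromosome 5 at 112430909 and 11 against 44 on chromosome 19 at 59783251. All 3 had a KO Sox2 summit and none had a WT Oct4 or WT Sox2 summit. The smallest were 32 against 9 on chromosome 8 at 92748240, 30 against 9 on chromosome 8 at 19919471, inside the stretch around Gm15319 though not in a window that was itself crowded, and 21 against 7 on chromosome 14 at 46842891. The first 2 of these lay in Uhrf1 regions.

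As a check of the labels, H3K4me3 domains lay within 2 kb of the starts of 4 of 5 mESC genes in either genotype (Pou5f1, Nanog, Sox2 and Zfp42, not Esrrb). They also lay at 4 of 5 fibroblast genes (Col1a1, Col1a2, Thy1 and Vim, not S100a4) in either genotype. WT H3K27me3 domains lay at the starts of the same 4 fibroblast genes, and at those of Pou5f1, Sox2 and Esrrb. The part of feeder cells in any result was not tested. The start of Uhrf1 had an H3K4me3 domain in both lists, which says nothing about its product.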

How the data were processed

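The study's methods give the processing up to deposit. The authors aligned reads to mm9 with Bowtie2 2.1.0, reporting 1 alignment per read, and called factor summits with MACS, 1 list per library. The signal they deposited with each summit is its pileup height. They called histone domains with RSEG against input, and Uhrf1 regions as 10 kb windows enriched over input. Whether MACS used a control or heights were scaled is not given in the sources used here.

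Summits within 100 bp counted as shared. Overlaps, sequence windows (201 bp) and distances to starts of 22380 protein-coding GENCODE genes were computed on NCBIM37 in Python 3.11 (numpy 2.4.6, scipy 1.17.1 and, for plots, matplotlib 3.10.9). No Nanog summit passed a chromosome end. Differences within 5 groups of KO height were weighted by KO-only sites, with normal-approximation intervals. On simulated data 0 of 2390 distances and 0 of 650 region calls were wrong, and Newcombe intervals held the true difference in 94.2% of 500 draws. Listed genes whose symbol matched no entry were left out.

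Members and lists were chosen with earlier results of these data known. Named sites were the 3 tallest shared, WT-only and KO-only sites and the 3 largest and smallest KO/WT ratios, outside crowded windows. Named genes were up to 12 pluripotency genes and 4 of each other list with the tallest site within 50 kb, and the 3 genes with most KO-only sites. Height groups of WT sites, KO heights of 15 to 25 and class differences without crowded places were added after seeing the data. The sequences at some of the named sites are not reported here.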

Additional observations from a re-analysis of the deposited data

How the results depend on the processing

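The lists hold summits and no reads, so depth was not weighed, and their lowest heights differ (9 in WT and 5 in KO). No paired analysis was possible because each genotype had 1 Nanog library, and for the same reason no library was left out. A value counted as moved when it left the 95% interval of the value reported above, and the cause was not tested.

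The share of WT sites that were shared was 65.3%, 91.1% and 93.1% at distances of 50, 500 and 1000 bp, and that of KO sites 14.7%, 20.4% and 21.8%. Both were 55.7% with lists of equal number. For WT sites the share was 87.3% at or above the median height and 85.1% without crowded places and unplaced sequence, and it was 65.0%, 76.5%, 84.9%, 90.2% and 93.7% in the 5 groups of WT height.

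Differences between KO-only and shared sites, in percentage points, moved as follows. At 500 bp they were -2.26 for Uhrf1 regions, -42.5 for WT Oct4, -48.4 for WT Sox2 and -25.6 for KO Sox2. At or above the median height they were -13.2 for WT H3K4me3, -39.7 for WT Oct4, -49.2 for WT Sox2 and -20.2 for KO Sox2. Within 5 groups of KO height they were -3.74 for WT H3K4me3, -6.55 for WT H3K27me3, -4.27 for WT H3K9me3, -7.58 for Uhrf1 regions, -32.2 for WT Oct4, -34.3 for WT Sox2, -5.81 for KO Sox2, 4.41 for the Sox element and -12.1 for loss of WT H3K4me3, and the sign turned for KO H3K4me3 (4.13) and KO H3K9me3 (0.32). At KO heights of 15 to 25 they were -7.38 for WT H3K4me3, -1.36 for KO H3K9me3, -2.54 for Uhrf1 regions, -33.9 for WT Oct4, -39.1 for WT Sox2, -10.5 for KO Sox2, 2.97 for the Sox element and -11.4 for loss of WT H3K4me3, and the sign turned for KO H3K4me3 (1.44). For WT-only against shared sites, leaving out crowded places turned the sign for WT H3K4me3 (3.44) and WT H3K9me3 (0.86). The sign also turned for WT H3K27me3 (from -5.31 to 2.75) and KO H3K4me3 (from -6.69 to 1.49). So it did for KO Oct4 (from 2.81 to -2.95) and the Esrrb element (from -0.48 to 0.52). The difference in KO H3K9me3 went from -16.6 to -5.15. The KO counts of the other gene lists with the KO list cut stand beside those lists.

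Genes with a site within the window numbered 999 in WT and 3970 in KO at 20 kb and 3887 and 12285 at 100 kb. With the KO list cut to the WT number they were 2408 in all and 20 of the pluripotency genes. The other 58 values of the main results stayed within the interval, or within 1.5 times for counts.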

Other observations

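Nanog sites were spread unevenly over the chromosomes. Chromosome 11 had 7.36 KO sites per Mb and 1.63 WT sites per Mb, and chromosome X 1.64 and 0.34. Chromosome 8, which holds the crowded places around Gm15319, had 1.75 WT sites per Mb, and 81 of its 230 WT sites were WT-only.

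The protein-coding genes with most KO-only sites within 50 kb of their start were Gm15319, with 38, in the crowded place on chromosome 8, Plekhf2, an endosomal protein, with 8 KO sites and 0 WT sites, and Pgs1, a phospholipid synthesis enzyme, with 7 KO-only of 9 KO sites.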
